A study of Homo sapiens with 8 samples.

Results

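The genes described here are 36 named genes of G2 and mitosis, taken from the RNA-seq table of CTCF AID2 SEM cells as the entries whose gene symbol equals one of the names. The rule found 35 of the 36 names among 60754 listed genes and spike-in sequences, and all 35 were among the 15614 genes that reached a TPM (transcript abundance corrected for gene length and library size) of 1 in at least 1 library. The remaining gene, *KIF23*, is listed under another symbol with its own gene identifier and is given separately. SEM is a human B-cell acute lymphoblastic leukemia (B-ALL) line with a *KMT2A* rearrangement. In the cells used, endogenous CTCF carries the miniAID degron and mClover3, and a lentivirus supplies OsTIR1(F74G) with a Zeocin resistance gene, so that the auxin analog 5-Ph-IAA directs the tagged CTCF to degradation. The 8 libraries fall into 4 groups of 2. The clones are C17.2 and C3.2. C17.2 parental and C3.2 parental cells were untreated. C17.2 resistant and C3.2 resistant cells had been kept for 36 days in 1 μM 5-Ph-IAA with 100 μg/ml Zeocin, and the drugs were then washed out. Resistant cells of C3.2 carry a missense mutation in the degron and those of C17.2 a truncated CTCF that lacks it. The paper reports that the tagged full-length CTCF of C17.2 returned after washout beside the truncated form and could still be degraded. Each clone grew from a single cell, so each stands for 1 genetic background, and no label says that the 2 libraries of a group came from separate cultures. The p-values therefore measure the spread between these libraries, which may be technical.

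Progression from G2 into mitosis is driven by CDK1 bound to A- and B-type cyclins, and is carried through by the Polo, Aurora and NEK kinases, the kinetochore, the spindle motors and the anaphase-promoting complex (APC/C), a ubiquitin ligase that degrades securin and cyclin B. Most of these genes are transcribed in G2 and repressed in G1 by the MuvB complex, which works with B-MYB and FOXM1 in late cycle and recognizes the cell cycle genes homology region (CHR) of their promoters. NF-Y, which binds CCAAT boxes, is a common partner at these promoters. RNA from unsorted cells gives 1 average over all phases of the cycle, so a larger share of cells in G2 or mitosis cannot be told apart from more of the RNA in each such cell.

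The promoters of the 3 genes with the largest rise in resistant cells of C17.2 are shown. Those of *CCNB1* and *CDC20* were added whatever their values. The letters in the promoters played no part in this choice. Each sequence runs from 250 bases before to 50 bases after the RefSeq transcription start on GRCh38.p14, 5′ to 3′ on the strand of the gene. Capitals mark a CHR (TTTGAA or TTTAAA) or a CCAAT box, read on both strands, so that TTCAAA and ATTGG are the same motifs on the other strand.
DLGAP5: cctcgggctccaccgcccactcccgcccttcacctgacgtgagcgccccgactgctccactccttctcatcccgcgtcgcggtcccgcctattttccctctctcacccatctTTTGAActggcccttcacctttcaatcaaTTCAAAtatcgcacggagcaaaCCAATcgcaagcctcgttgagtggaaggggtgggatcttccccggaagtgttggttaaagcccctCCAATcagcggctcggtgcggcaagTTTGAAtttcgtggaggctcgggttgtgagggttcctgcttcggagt
KIF20A: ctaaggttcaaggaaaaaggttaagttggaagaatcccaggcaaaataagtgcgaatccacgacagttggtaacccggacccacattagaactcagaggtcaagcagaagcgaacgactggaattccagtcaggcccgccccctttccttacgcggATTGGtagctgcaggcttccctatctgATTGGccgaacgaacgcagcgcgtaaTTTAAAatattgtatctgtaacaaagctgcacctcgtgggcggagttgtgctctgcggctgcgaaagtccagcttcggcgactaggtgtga
PTTG1: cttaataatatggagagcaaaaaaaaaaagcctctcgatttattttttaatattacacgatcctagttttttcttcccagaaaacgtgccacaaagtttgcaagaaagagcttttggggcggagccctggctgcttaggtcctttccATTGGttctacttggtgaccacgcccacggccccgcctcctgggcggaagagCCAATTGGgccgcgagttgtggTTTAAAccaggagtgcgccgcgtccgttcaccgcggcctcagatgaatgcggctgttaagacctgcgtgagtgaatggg
CCNB1: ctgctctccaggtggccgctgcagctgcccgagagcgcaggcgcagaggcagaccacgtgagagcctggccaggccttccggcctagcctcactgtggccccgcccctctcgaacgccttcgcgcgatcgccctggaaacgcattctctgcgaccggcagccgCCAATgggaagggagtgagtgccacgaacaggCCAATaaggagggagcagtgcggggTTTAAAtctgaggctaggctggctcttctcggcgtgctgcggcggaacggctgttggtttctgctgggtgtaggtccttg
CDC20: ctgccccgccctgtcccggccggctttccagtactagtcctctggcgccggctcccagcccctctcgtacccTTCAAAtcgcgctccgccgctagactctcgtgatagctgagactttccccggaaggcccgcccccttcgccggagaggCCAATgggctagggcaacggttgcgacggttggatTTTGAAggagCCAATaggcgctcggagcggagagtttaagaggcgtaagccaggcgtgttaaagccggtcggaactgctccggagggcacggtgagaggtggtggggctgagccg
They lie at chr14:55191536-55191835 (DLGAP5, reverse strand), chr5:138178862-138179161 (KIF20A, forward), chr5:160421605-160421904 (PTTG1, forward), chr5:69166900-69167199 (CCNB1, forward) and chr1:43358731-43359030 (CDC20, forward). In *KIF20A*, *PTTG1* and *CCNB1* the CHR reads TTTAAA and begins 41, 29 and 30 bases before the start, downstream of CCAAT boxes. In *CDC20* a TTTGAA begins 65 bases before the start and a second CHR lies on the other strand at 178 bases. *DLGAP5* holds 3 CHR matches, the nearest of them 4 bases after the start.

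RefSeq promoters were matched for 30 of the 35 genes, taking only the first listed promoter of each symbol here and in the sets compared. Of these, 24 (80.0%) held a CHR, against 24.3% of all 27305 promoters of the same length and 15.4% of the 8886 that belong to tested protein-coding genes. A CCAAT box was found in 23 (76.7%), against 35.7% and 37.8%, and both motifs in 19 (63.3%), against 9.49% and 6.48%. A CHR was present in 18 of the 19 matched promoters of genes that were higher in C17.2 resistant cells (94.7%) and in 6 of the 11 others (54.5%). The promoters of *AURKB*, *BUB1*, *CCNA2*, *CDC25B*, *CDC25C* and *NEK2* held neither TTTGAA nor TTTAAA in this window. Of these 6, only *BUB1* passed the test in C17.2. No other form of the CHR was searched for, so a CHR of another form or outside the window would be missed. These matches are letters in a window and were not tested against the expression values.

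Levels are given as scaled TPM, which is TPM scaled between libraries by a trimmed mean of log2 ratios, or where so named as TPM, which is the deposited value. Changes are log2 fold changes of (scaled TPM + 1) from limma with Benjamini-Hochberg adjustment over the 15614 genes and a threshold of 0.05. The depth of the libraries is unknown because TPM does not keep it. The library factors ran from 0.893 to 1.16, and Pearson's r between both libraries of a group, taken across genes, was 0.968 to 0.979. RNA of the tagged gene, *CTCF*, averaged 33.9 scaled TPM in parental and 46.4 in resistant cells of C17.2, and 35.5 and 45.1 in C3.2. Of 11 B-lineage markers 8 reached 1 TPM in a library, whereas *DNTT*, *RAG1* and *BLNK* did not, and their summed level was 700 to 751 TPM in parental and 642 to 645 TPM in resistant cells of C17.2, and 698 to 741 TPM and 553 to 590 TPM in C3.2. Within that sum *IGLL1* went from 89.6 and 80.6 to 20.1 and 20.5 TPM in C17.2 and *PAX5* from 173 and 161 to 193 and 185 TPM. Of 11 markers of other cell types 3 reached 1 TPM (*LYZ*, *COL1A1* and *CSF1R*), *CD3D* was at 0 throughout, and their summed level was 5.59 to 5.82 TPM in parental and 9.8 to 10.9 TPM in resistant cells of C17.2, and 4.62 to 5.96 TPM and 7.32 to 7.33 TPM in C3.2. In C17.2 *COL1A1* went from 2.97 and 2.63 to 7.45 and 6.5 TPM, and *CSF1R* from 1.61 and 2.34 to 1.06 and 0.92 TPM. Whether these shifts play a part in the changes below was not tested.

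All 35 genes were expressed in every library, from 6.89 scaled TPM for *CDC25C* to 174 for *PTTG1*. In C17.2, 23 of the 35 were higher in resistant cells and 0 were lower, whereas 13.4% of all tested genes were called higher and 13.9% lower. The genes and the lists below were chosen with earlier results of these data known. Setting them beside all tested genes is therefore no independent test. The median log2 fold change of the 35 was 0.29, with a range of -0.11 to 0.72, beside a median of 0.00 for all tested genes. In C3.2, 0 were higher and 1 was lower, against 4.46% and 6.9% of all tested genes, and the median was -0.03. At an unadjusted p under 0.05 from limma, 9 genes differed in C3.2, of which 2 were higher and 7 lower. The share of all tested genes at that unadjusted p was not taken, so these counts have no background. The change in C17.2 exceeded that in C3.2 for 15 genes and fell short of it for 0 (interaction contrast, 4.91% and 4.99% of all tested genes), and the difference was above 0 for all 35, with a median of 0.29.

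Both resistant libraries of C17.2 lay above both parental libraries for 31 of the 35 genes and below them for 3, where 33.3% of all tested genes had the resistant libraries on top. In C3.2 the resistant libraries lay above for 5, against 27.8% of all tested genes, and below for 15. The share of all tested genes with the resistant libraries below was not taken, so the counts of 3 and 15 have no background. Summed over the 35 genes, the level was 1338 and 1345 scaled TPM in C17.2 parental cells and 1665 and 1673 in C17.2 resistant cells. In C3.2 it was 1573 and 1587 in parental and 1533 and 1535 in resistant cells. The lowest sums were thus those of C17.2 parental cells. Both C17.2 parental libraries were below both C3.2 parental libraries for 22 genes and above them for 3, against 32.9% of all tested genes below. No share of all tested genes was taken for the order above. In the TPM as deposited the parental sums were closer, at 1405 and 1329 in C17.2 and 1405 and 1463 in C3.2. The labels name no batch, but the number that opens each library title falls into a separate consecutive run for each clone. Clone and run cannot be told apart where levels of the clones are compared.

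**Figure D1:**
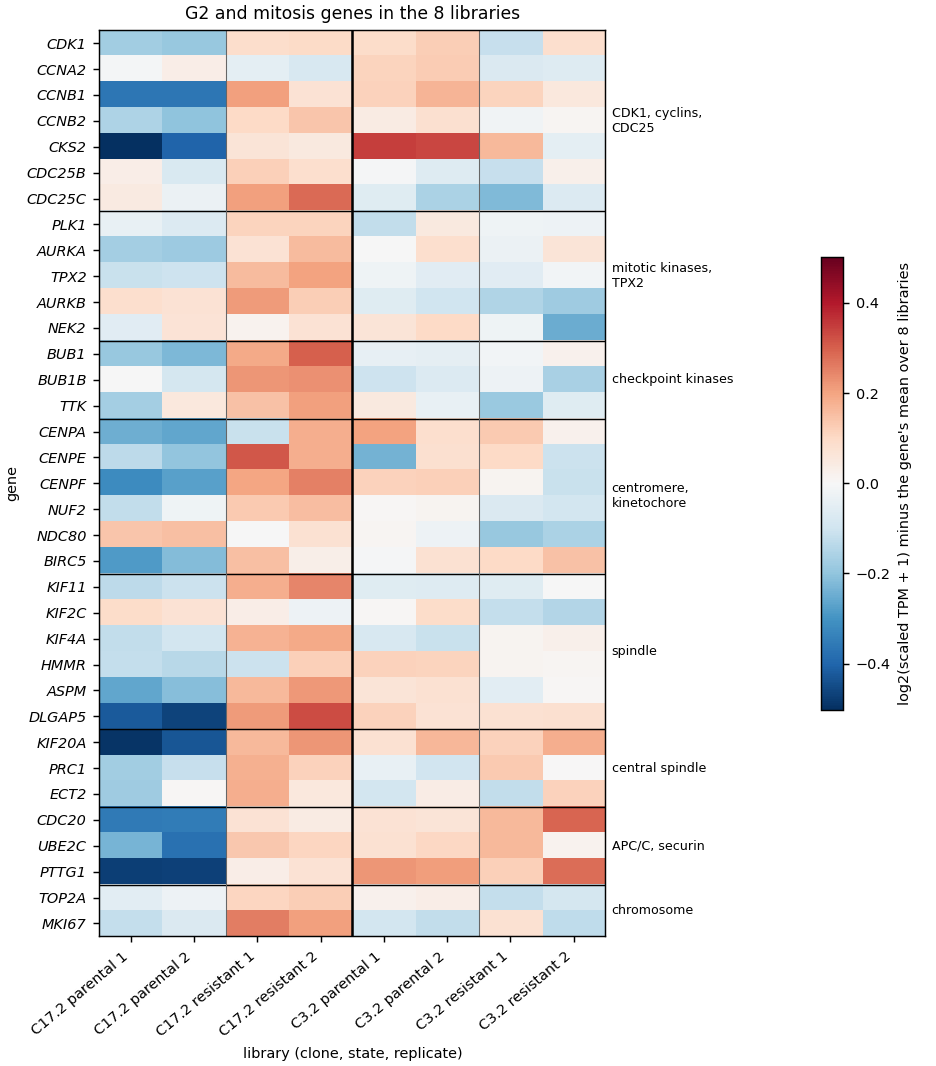
Log2(scaled TPM + 1) of each of the 35 genes (vertical axis, grouped by role) in each of the 8 libraries (horizontal axis), minus the gene's mean over the libraries, with red above and blue below that mean. The C17.2 parental libraries are mostly blue, with 6 and 7 genes above their mean, and the C17.2 resistant libraries mostly red, with 31 and 33.

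The first group holds CDK1, its cyclins and subunits, and the CDC25 phosphatases that activate it, and 4 of its 7 genes were higher in C17.2 resistant cells. *CCNB1* encodes cyclin B1, the main partner of CDK1 at mitotic entry. It measured 41.6 and 41.7 scaled TPM in C17.2 parental cells, 62.3 and 56.7 in resistant cells, and 58.5, 60.9, 58.3 and 55.9 in the parental and then resistant libraries of C3.2. C17.2 parental cells stood below the other 6 libraries. The log2 fold change was 0.50 ± 0.056 (standard error; adjusted p = 0.00153 from limma) in C17.2 and -0.06 (adjusted p = 0.516) in C3.2, and the changes differed by 0.56 (adjusted p = 0.0101). *CKS2*, a small subunit that binds CDK1, went from 38.8 and 41.7 to 58.0 and 57.4 scaled TPM in C17.2. In C3.2 it went from 70.7 and 70.1 to 62.1 and 53.5. The resistant libraries lay above the parental ones in C17.2 and below them in C3.2, without overlap. The change was 0.51 (adjusted p = 0.0042 from limma) in C17.2 and -0.28 in C3.2, where it did not pass (adjusted p = 0.0607), and the difference of 0.79 was the largest among the 35 genes (adjusted p = 0.00869). *CDK1* itself, the kinase, was higher by 0.28 in C17.2 and *CCNB2*, which encodes cyclin B2, by 0.30.

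*CCNA2*, which encodes cyclin A2 of S phase and G2, behaved otherwise. It measured 42.4 and 43.7 scaled TPM in parental and 41.2 and 40.3 in resistant cells of C17.2, and 46.2 and 46.7 against 40.5 and 40.7 in C3.2. The resistant libraries were the lower ones in both clones. Only the C3.2 change of -0.19 passed (adjusted p = 0.0313 from limma), and it was the 1 gene called there. It did not pass under 5 of the 8 alternatives in scaling, pseudocount, filter or model, with adjusted p-values of 0.0707 to 0.21 from limma in those 5, nor without any 1 of the 4 C3.2 libraries. It passed without any 1 of the 4 C17.2 libraries. *CCNA2* overlaps *EXOSC9* on the opposite strand, at 45.7% of its mean TPM. Overlaps were taken over whole gene spans, introns included, and shared exons were not examined. The strand setting of the counting is not given in the sources used here, so whether reads of such pairs were mixed is unknown. *CDC25B* and *CDC25C* did not pass in either clone, with values of 0.12 and 0.24 in C17.2. *CDC25C* overlaps *FAM53C*, which has a mean TPM of 17.4 against 8.38 for *CDC25C*.

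Among the mitotic kinases and TPX2, which activates Aurora A on the spindle, 2 of 5 genes were higher in C17.2. *AURKA*, which encodes Aurora A, measured 16.8 and 16.7 scaled TPM in parental and 20.1 and 21.4 in resistant cells. *TPX2* measured 43.0 and 43.3, then 52.1 and 53.8. Both moved by 0.29 (adjusted p = 0.0128 and 0.00362 from limma), with no overlap between groups. *PLK1*, the Polo kinase of mitotic entry and exit, had a change of 0.16 (95% interval 0.02 to 0.31, adjusted p = 0.0944 from limma), and *AURKB*, the kinase of the chromosomal passenger complex, one of 0.09. *NEK2*, a centrosome kinase, had 0.04 in C17.2 and -0.22 in C3.2 (adjusted p = 0.161 from limma). The changes of the 5 genes in C3.2 ran from -0.22 to 0.01 and none passed.

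The spindle checkpoint holds anaphase back until every chromosome is attached, and 2 of its 3 kinase genes were higher in C17.2. *BUB1* went from 48.4 and 47.2 to 63.4 and 68.4 scaled TPM in C17.2, and from 53.8 and 53.7 to 54.8 and 56.1 in C3.2. The C17.2 resistant libraries were the highest of the 8. The change was 0.45 (adjusted p = 0.00133 from limma) against 0.05 in C3.2, a difference of 0.41 (adjusted p = 0.0182). *BUB1B*, which encodes BUBR1, was higher by 0.27 (adjusted p = 0.0181 from limma), and *TTK*, which encodes MPS1, had a change of 0.23 that did not pass (adjusted p = 0.0983).

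Of the centromere, kinetochore and chromosomal passenger genes, 4 of 6 were higher in C17.2. *CENPF*, which encodes a large outer kinetochore protein, measured 43.5 and 44.8 scaled TPM in C17.2 parental and 62.4 and 64.8 in resistant cells, and 59.0 and 59.0 against 54.9 and 50.1 in C3.2. The resistant libraries were the higher ones in C17.2 and the lower ones in C3.2. In the TPM as deposited the C3.2 groups overlapped, at 52.7 and 54.4 TPM in parental and 53.5 and 46.5 TPM in resistant cells. The change was 0.52 (adjusted p = 0.00118 from limma) in C17.2 and -0.17 in C3.2 (adjusted p = 0.104), a difference of 0.68 (adjusted p = 0.00479). *CENPE*, a kinetochore motor, was higher by 0.41 in C17.2 close to the threshold (adjusted p = 0.0486 from limma), *BIRC5*, which encodes survivin of the passenger complex, by 0.34 and *NUF2* by 0.22. *NUF2* and *NDC80* encode partners in the complex that binds microtubules, yet their values differed. *NDC80* measured 27.6 and 27.9 scaled TPM in C17.2 parental cells and 24.9 and 26.4 in resistant cells. Its resistant libraries were the lower ones, with a change of -0.11 (95% interval -0.22 to 0.00, adjusted p = 0.135 from limma). *CENPA*, the centromeric histone, had 0.29 with an interval of 0.04 to 0.54 and did not pass. It overlaps *SLC35F6* on the same strand, at 56.6% of its mean TPM.

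**Figure D2:**
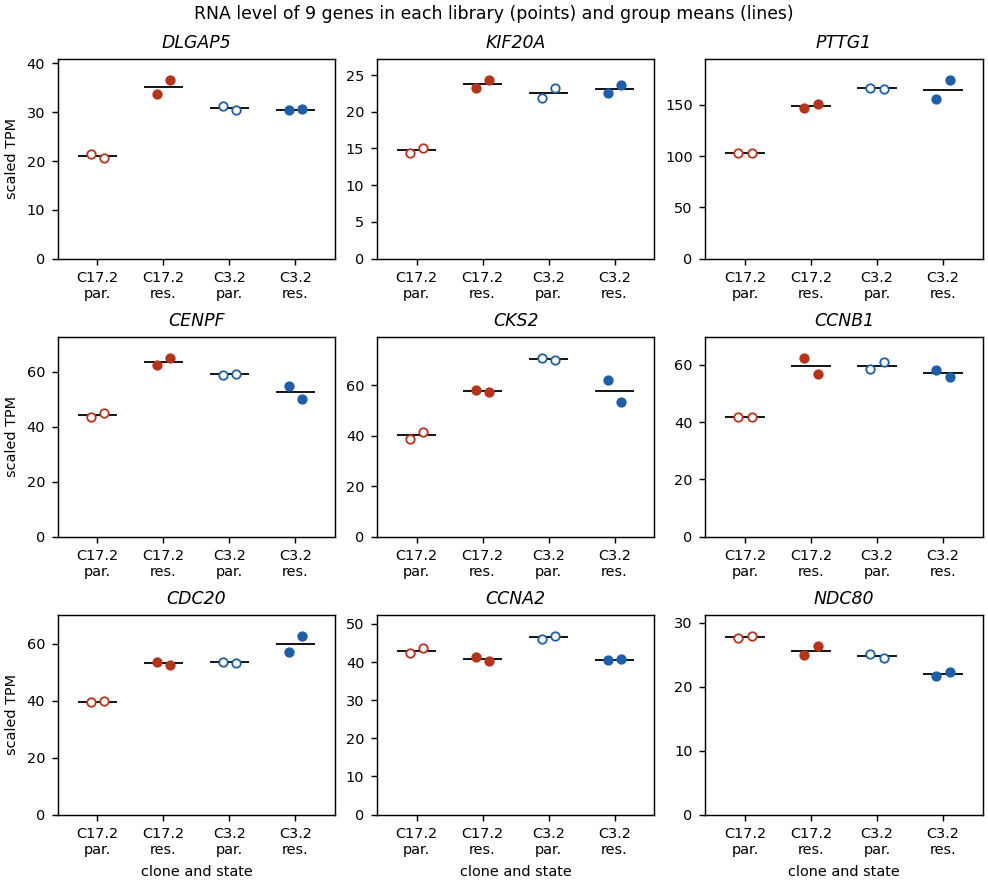
Scaled TPM (vertical axes, starting at 0) of 9 genes in the 8 libraries, with parental (par.) cells as open and resistant (res.) cells as filled points for C17.2 (red) and C3.2 (blue), and lines at the group means. *DLGAP5*, *KIF20A*, *PTTG1*, *CENPF*, *CKS2*, *CCNB1* and *CDC20* were lowest in C17.2 parental cells, whereas *CCNA2* and *NDC80* were not.

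The largest change of all 35 genes was in the spindle group, where 4 of 6 genes were higher in C17.2. *DLGAP5*, which encodes the microtubule-binding protein HURP, measured 21.3 and 20.6 scaled TPM in C17.2 parental cells and 33.7 and 36.5 in resistant cells. In C3.2 it measured 31.4 and 30.5 in parental and 30.5 and 30.6 in resistant cells. The C17.2 parental libraries were the lowest and the C17.2 resistant libraries the highest of the 8. The change was 0.72 ± 0.052 (standard error; adjusted p = 0.000315 from limma), 1.64-fold on the scale used, against -0.02 in C3.2 (95% interval -0.14 to 0.11), and the difference was 0.73 (adjusted p = 0.00336). *ASPM*, a spindle pole protein, was higher by 0.43 and *KIF11*, the motor that pushes the spindle poles apart, by 0.34, and both also differed between the clones (adjusted p = 0.00631 and 0.0328 from limma). *KIF4A*, a chromosome-bound motor, was higher by 0.29. It overlaps *PDZD11* on the opposite strand, which has 128% of its mean TPM and was itself higher by 0.45 (adjusted p = 0.00147 from limma), so the change of *KIF4A* carries this doubt. *KIF2C*, a kinesin that takes microtubules apart at centromeres, and *HMMR*, a spindle-binding protein, did not pass in C17.2 (-0.08 and 0.14).

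In the central spindle group, where cytokinesis is prepared, 2 of 3 genes were higher in C17.2. *KIF20A*, which encodes the motor MKLP2, went from 14.4 and 15.1 to 23.3 and 24.3 scaled TPM in C17.2. In C3.2 it measured 21.8 and 23.3 in parental and 22.5 and 23.6 in resistant cells. The C17.2 parental libraries stood apart from the other 6. The change was 0.65 (adjusted p = 0.00057 from limma) against 0.03 in C3.2, a difference of 0.62 (adjusted p = 0.00725). *KIF20A* overlaps *BRD8* and *CDC23* on the opposite strand, at 175% and 110% of its mean TPM, and these changed by 0.11 each in C17.2 and did not pass. In C3.2 *BRD8* was lower by -0.29 (adjusted p = 0.0441 from limma), and its changes differed between the clones by 0.40 without passing (adjusted p = 0.0513). *PRC1*, which bundles the microtubules of the central spindle, was higher by 0.29, and *ECT2*, the activator of RhoA at the cleavage furrow, had 0.20 and did not pass. *KIF23*, which encodes MKLP1 and was matched by its gene identifier, measured 25.2 and 23.0 scaled TPM in parental and 25.1 and 28.1 in resistant cells of C17.2. Its groups overlapped, and its changes of 0.14 in C17.2 and 0.08 in C3.2 did not pass in limma (adjusted p = 0.205 and 0.512).

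All 3 genes around the APC/C were higher in C17.2. *PTTG1* encodes securin, the inhibitor of separase, and had the highest level of the 35 genes. It measured 103 and 103 scaled TPM in C17.2 parental and 147 and 151 in resistant cells, and 167, 166, 156 and 174 in the parental and then resistant libraries of C3.2. The C17.2 resistant libraries were below all 4 libraries of C3.2 in scaled TPM, whereas in the TPM as deposited they were above them, at 164 and 174 TPM against 149 to 161 TPM. The change was 0.52 (adjusted p = 0.00145 from limma) against -0.02, a difference of 0.54 (adjusted p = 0.0129). *UBE2C*, the E2 enzyme that starts ubiquitin chains for the APC/C, was higher by 0.43 (adjusted p = 0.00531 from limma). *CDC20*, the APC/C activator, went from 39.5 and 39.7 to 53.6 and 52.4 scaled TPM in C17.2, and from 53.5 and 53.2 to 57.0 and 62.5 in C3.2. Both resistant libraries were above both parental libraries in each clone. The changes of 0.41 (adjusted p = 0.00238 from limma) and 0.16 (adjusted p = 0.107) were not shown to differ (0.25, adjusted p = 0.0831). Reads of near-identical copies can be split by the counting, and the copies listed for these genes were low, with mean TPM of 1.28 for *PTTG2*, 1.86 for *CDC20P1* and 1.14 for *UBE2CP2*. The related gene *CKS1B* was higher than *CKS2*, with a mean of 70.9 against 56.4 TPM, and had changes of 0.14 in C17.2 and 0.00 in C3.2 that did not pass.

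Both chromosome genes were higher in C17.2. *TOP2A*, the topoisomerase that untangles sister chromatids, measured 95.5 and 97.5 scaled TPM in parental and 107 and 108 in resistant cells, and 101 and 102 against 91.2 and 93.4 in C3.2. Its groups were apart in both clones, with a change of 0.16 (adjusted p = 0.0241 from limma) in C17.2 and -0.13 in C3.2 (adjusted p = 0.0768). *MKI67*, which encodes the proliferation marker Ki-67 on the surface of mitotic chromosomes, was higher by 0.33 (adjusted p = 0.0171 from limma) in C17.2. In C3.2 its value was 0.08 (adjusted p = 0.497).

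**Figure D3:**
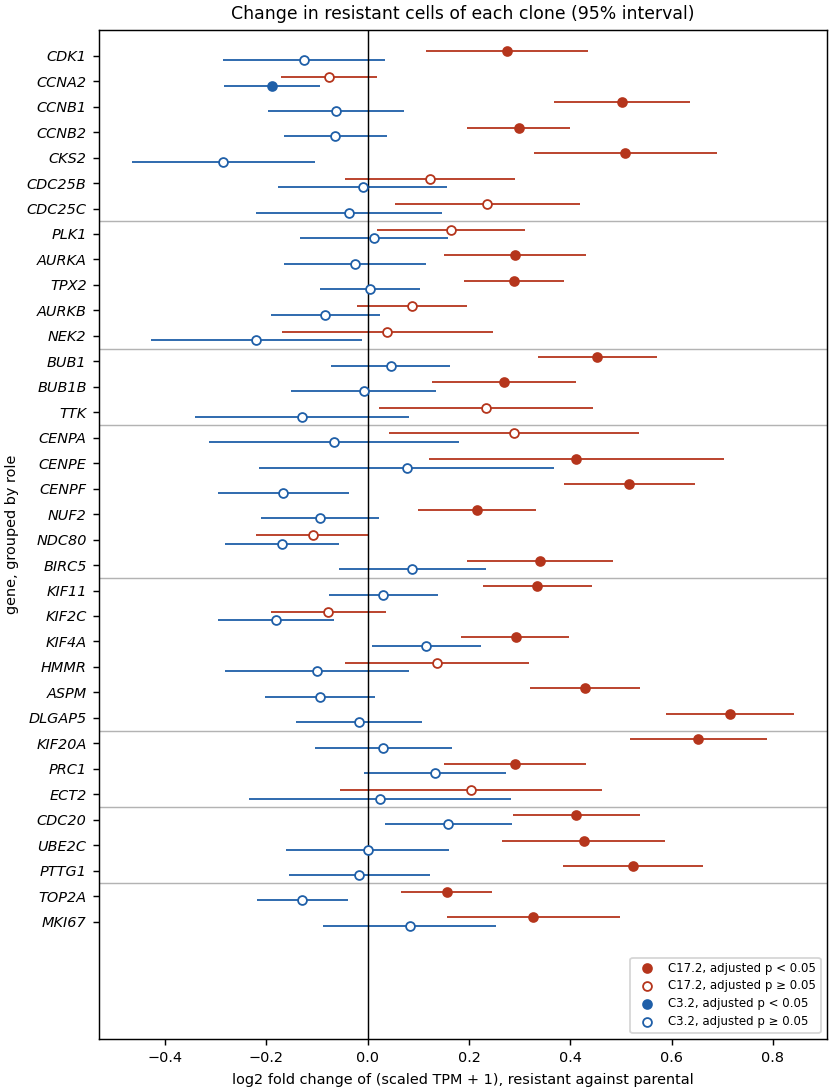
Log2 fold change of (scaled TPM + 1) in resistant against parental cells (horizontal axis) with its 95% interval for the 35 genes (vertical axis, grouped by role) in C17.2 (red) and C3.2 (blue), filled where the adjusted p was under 0.05. In C17.2, 23 points are filled and all of these lie above 0, and in C3.2 only *CCNA2* is filled, below 0.

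The interval of C3.2 ended below the C17.2 estimate for 31 of the 35 genes. That count leaves out the error of the C17.2 estimate and has no share over all tested genes beside it, so it is no test. The interaction contrast, which takes in both errors, called 15. All 15 genes whose change differed between the clones were among the 23 that were higher in C17.2. They were *CKS2*, *DLGAP5*, *CENPF*, *KIF20A*, *CCNB1*, *PTTG1*, *ASPM*, *UBE2C*, *BUB1*, *CDK1*, *CCNB2*, *NUF2*, *KIF11*, *TOP2A* and *TPX2*. The other 8 were higher in C17.2 without a difference from C3.2 being shown. Of the 23 calls in C17.2, 20 held under every alternative in scaling, pseudocount, filter or model, and 14 held also when any 1 of the 8 libraries was left out. Without C17.2 parental replicate 1, 15 were called. Of the 15 differences between clones, 4 held under every alternative (*ASPM*, *CENPF*, *DLGAP5* and *KIF20A*). The number of differences called was 5 and 6 without C17.2 parental replicate 1 and 2, 7 without C17.2 resistant replicate 2, and 5 and 4 without C3.2 parental replicate 1 and 2.

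A broader list of 129 other G2 and mitosis genes had a smaller median change in C17.2 than the 35. Of these, 50 were higher and 6 lower, with a median of 0.16, against 4 and 7 with a median of -0.01 in C3.2. Over all tested genes the shares called were 13.4% higher and 13.9% lower in C17.2, and 4.46% and 6.9% in C3.2. Among its parts, 6 of 8 other mitotic kinesins, 7 of 10 further proliferation genes of G2 and M, 8 of 19 spindle assembly genes and 4 of 7 cytokinesis genes were higher in C17.2. Of 17 APC/C subunits and partners 3 were higher, and of 8 condensin genes 3. Among genes past the threshold the largest rises were 0.79 for *PIMREG*, a regulator named for its interaction with PICALM, 0.72 for *OIP5*, which loads CENPA, 0.68 for *CDKN3*, a phosphatase of cyclin-dependent kinases, and 0.63 for *SGO2*, a protector of centromeric cohesion. The largest falls past it were -0.60 for *PKMYT1*, which inhibits CDK1, -0.37 for *CENPB*, -0.34 for *SKA1* and -0.26 for *KIF2A*. Of the 129 genes, only 1 was called lower in C17.2 in the TPM as deposited, and 2 after rescaling over protein-coding genes. The *KIF2A* groups overlapped in the TPM as deposited, at 68.2 and 62.0 TPM in parental and 58.2 and 62.9 TPM in resistant cells. In C3.2 the genes called higher were *ANAPC11* (0.50), *KIF18B* (0.21), *ANAPC16* (0.21) and *GTSE1* (0.18), and those called lower included *SKA3* (-0.26), *CDC25A* (-0.26) and *RBBP4* (-0.24). *SKA3*, of the complex that couples kinetochores to microtubules, and *CDC25A*, a further CDC25 phosphatase, passed in both clones with opposite signs. They were higher by 0.24 and 0.19 in C17.2, and the differences between clones were 0.50 and 0.45 (limma, adjusted p = 0.0173 and 0.0164). In the TPM as deposited 0 of the 129 genes were called lower in C3.2. The same held after rescaling over protein-coding genes and with the clone fitted alone. The falls of *SKA3* and *CDC25A* in C3.2 therefore depend on the scaling and the model. With the clone fitted alone, or without the intensity trend, 0 of the 129 genes were called higher in C3.2. The 4 rises there therefore depend on the model.

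After scaling, none of the 7 genes of MuvB, B-MYB and FOXM1 was called higher in either clone. *FOXM1* measured 46.2 and 46.4 scaled TPM in C17.2 parental and 46.5 and 46.4 in resistant cells. Its change was 0.01 (adjusted p = 0.933 from limma) in C17.2 and 0.10 in C3.2 (adjusted p = 0.137). In the TPM as deposited both resistant libraries of *FOXM1* lay above both parental ones in each clone. They were at 52.2 and 53.7 against 48.5 and 45.8 TPM in C17.2. In C3.2 they were at 36.5 and 35.7 against 31.6 and 32.4 TPM. The flat level of *FOXM1* in C17.2 therefore depends on the scaling. *MYBL2*, which encodes B-MYB, went from 77.6 and 76.6 to 67.7 and 65.5 scaled TPM in C17.2 and from 61.0 and 63.4 to 52.9 and 55.2 in C3.2. After scaling it was lower in resistant cells of both clones, with changes of -0.21 (adjusted p = 0.0157 from limma) and -0.20 (adjusted p = 0.0379). In the TPM as deposited its C17.2 groups overlapped, at 81.5 and 75.7 TPM in parental and 75.9 and 75.7 TPM in resistant cells. Its fall in C3.2 did not pass in the TPM as deposited, after rescaling over protein-coding genes, or with the clone fitted alone. *LIN54*, the MuvB subunit that reads the CHR, had changes of 0.02 and 0.04. Of the 7 genes, 1 was lower in C17.2 and 2 in C3.2, where 13.9% and 6.9% of all tested genes were, and so small a list gives no reading against those shares.

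Genes of the neighboring phase were mixed in C17.2, whereas in C3.2 those called were all lower. Of 40 G1/S and replication genes, 10 were higher and 9 lower in C17.2, with a median of -0.04, and 0 were higher and 8 lower in C3.2, with a median of -0.10. The shares over all tested genes were 13.4% higher and 13.9% lower in C17.2, and 4.46% and 6.9% in C3.2. Fewer were called lower in C3.2 under the other scalings and with the clone fitted alone. A CHR was found in 4 of the 35 matched promoters of this list (11.4%) and in 58 of 111 of the broader G2 and mitosis list (52.3%).

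**Figure D4:**
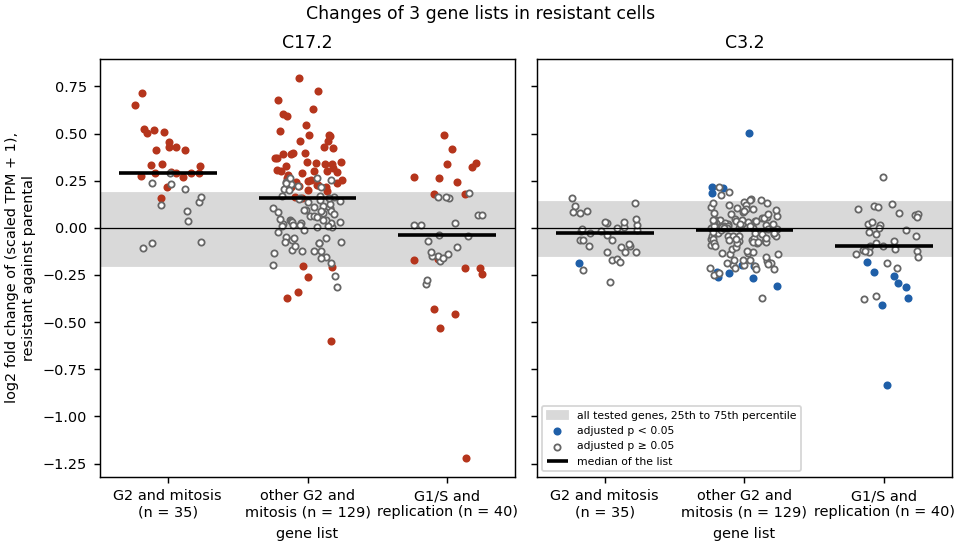
Log2 fold change of (scaled TPM + 1) in resistant against parental cells (vertical axis) for each gene of 3 lists (horizontal axis) in C17.2 (left) and C3.2 (right), filled where the adjusted p was under 0.05, with a bar at the median of each list and a band from the 25th to the 75th percentile of all tested genes. In C17.2 the medians are 0.29, 0.16 and -0.04, and in C3.2 they are -0.03, -0.01 and -0.10.

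The scaling of the libraries shifts every gene. Without it, in the TPM as deposited, the median of all tested genes was 0.14 in C17.2, and 75.1% of all calls were higher, against 49.1% after scaling. Relative to the median of all tested genes, the median of the 35 genes in C17.2 was 0.29 after scaling, 0.31 in the deposited TPM, 0.31 after rescaling over protein-coding genes and 0.27 after quantile normalization. In C3.2 the corresponding values were -0.03, -0.02, -0.02 and -0.03, although the median itself was 0.04 in the deposited TPM and 0.08 after rescaling over protein-coding genes. *CCNA2*, *NDC80* and *KIF2C*, the 3 genes below 0 in C17.2, were above 0 in the deposited TPM (0.08, 0.05 and 0.08) without passing. The direction of the median in C3.2 and of these 3 genes therefore depends on the scaling.

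**Figure D5:**
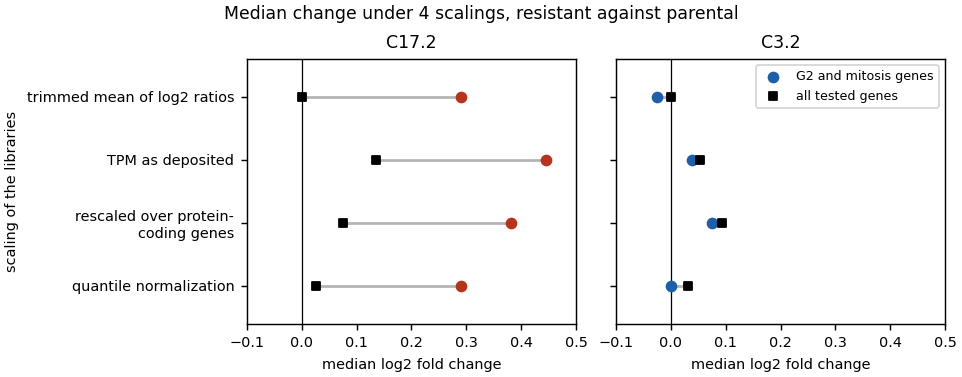
Median log2 fold change in resistant against parental cells (horizontal axis) of the 35 genes (circles) and of all tested genes (squares) under 4 scalings of the libraries (vertical axis) in C17.2 (left) and C3.2 (right). The distance between circle and square is 0.27 to 0.31 in C17.2 under every scaling and at most 0.03 in C3.2.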

How the data were processed

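RNA-seq of CTCF AID2 SEM cells was used, with 8 libraries in 4 groups of 2 (2 clones, parental and resistant). The authors removed ribosomal RNA, used Trim Galore 0.6.3 on the reads, STAR 2.7.9a for alignment to GRCh38 and RSEM 1.3.1 for quantification, and deposited TPM per gene. The labels give single-end reads and the methods paired-end reads. TPM keeps no depth, and counts, which limma-voom as used in the study takes, are not used here.

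The filter kept every gene reaching a TPM of 1 in any library (15614 of 60754). For each library a factor was taken as the average log2 ratio to the mean library, with 30% of ratios and 5% of mean levels trimmed off. Log2(scaled TPM + 1) was fitted in limma 3.58.1 (R 4.3.3; lmFit, contrasts.fit, eBayes with an intensity trend) in 1 model of the 4 groups with no covariate. Tests were two-sided, adjusted by Benjamini-Hochberg over all tested genes, with a threshold of 0.05. The smallest exact permutation p with 2 libraries a group is 0.333. The model was tested on simulated data.

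The 36 genes and all lists were chosen with earlier results of these data known. All 36 were named, with, of the other G2 and mitosis genes, the 4 largest rises and falls past the threshold in each clone, plus *FOXM1*, *MYBL2* and *LIN54*. A gene that this rule selects is not reported here. Genes overlapping or resembling the 36 were added from the annotation. Promoters were printed for the 3 largest rises in C17.2 (no fall passed), *CCNB1* and *CDC20*. Promoters came from RefSeq on GRCh38.p14, with only the first listed promoter of each symbol kept, and overlaps from Gencode release 44. Alternatives changed the scaling, pseudocount (0.1), filter, libraries in the fit, intensity trend, and left out each library in turn. Tables and plots were made in Python 3.11.15 with pandas 2.3.3 and matplotlib 3.10.9.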

Additional observations from a re-analysis of the deposited data

Results flagged for a closer look

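The change between parental and resistant cells differed between the clones for 15 genes, by the interaction contrast of limma with Benjamini-Hochberg adjustment over all tested genes. The C17.2 log2 fold change minus that of C3.2 was 0.793 for *CKS2* (adjusted p = 0.00869), 0.733 for *DLGAP5* (0.00336), 0.684 for *CENPF* (0.00479), 0.623 for *KIF20A* (0.00725) and 0.565 for *CCNB1* (0.0101). It was 0.54 for *PTTG1* (adjusted p = 0.0129 from limma), 0.524 for *ASPM* (0.00631), 0.426 for *UBE2C* (0.0404), 0.408 for *BUB1* (0.0182) and 0.401 for *CDK1* (0.0481). The smallest were 0.361 for *CCNB2* (adjusted p = 0.0174 from limma), 0.311 for *NUF2* (0.0396), 0.304 for *KIF11* (0.0328), 0.286 for *TOP2A* (0.0233) and 0.284 for *TPX2* (0.0311).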

How the results depend on the processing

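The direction of the median of the 35 genes in C17.2 and of the difference between the clones was the same under every alternative run. What depth limits could not be examined, since TPM keeps none, and each group has only 2 libraries. No paired analysis was possible because the labels give no shared replicate numbers. The causes of the shifts below were not tested.

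In the TPM as deposited the median of the 35 genes was 0.446 in C17.2, 0.038 in C3.2 and 0.38 for the difference between clones, with 0 called lower in C3.2. The 129 other G2 and mitosis genes had medians of 0.31, 0.051 and 0.28, with 1 called lower in C17.2, 0 in C3.2 and 1 for the difference. The 40 G1/S and replication genes had medians of 0.118, -0.03 and 0.184, with 4, 2 and 1 called lower.

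After rescaling over protein-coding genes the medians of the 35 genes were 0.382 and 0.076 in C17.2 and C3.2, and in C3.2 3 were called higher (*CDC20*, *KIF4A* and *PRC1*) and 0 lower. The other G2 and mitosis genes had medians of 0.246 and 0.089, with 2 called lower in C17.2, and 10 higher and 0 lower in C3.2. The G1/S genes had medians of 0.044 and 0.007, with 5 called lower in C17.2, and 1 higher and 4 lower in C3.2. These scalings moved the share of higher calls among all genes in C17.2 from 49.1% to 75.1% and 64.6%, and in C3.2 from 39.3% to 57.8% and 69.7%. Quantile normalization gave 50.8% in C3.2. For the difference the deposited TPM gave 64.0% against 49.6%.

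Under quantile normalization 8 of the 35 genes differed between clones, and in C3.2 0 of the 35, 1 other G2 and mitosis gene and 4 G1/S genes were lower, the last with a median of -0.009. Without the intensity trend 9 of the 35 differed between clones and 0 were lower in C3.2. There the other G2 and mitosis genes gave 0 higher and 2 lower in C3.2 and 10 higher for the difference, and the G1/S genes 4 lower in C3.2, and 3 higher and 1 lower for the difference. Fitting the clone alone gave, in C3.2, 0 of the 35 lower, 0 higher and 0 lower among the other G2 and mitosis genes, and 1 G1/S gene lower. With no filter the other G2 and mitosis genes gave 1 higher and 3 lower in C3.2, and 11 higher and 1 lower for the difference, and the G1/S genes 1 lower for the difference.

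With 1 library left out, where the lone library of a group is assumed to vary like the others, 15 to 23 of the 35 genes were higher in C17.2 and 4 to 15 differed between clones. The lowest counts of differences were 4 and 5 without C3.2 parental replicate 2 and 1, 5 and 6 without C17.2 parental replicate 1 and 2, and 7 without C17.2 resistant replicate 2. In C3.2, 0 to 1 were higher and 0 to 2 lower. For the other G2 and mitosis genes the ranges were 23 to 52 higher and 0 to 8 lower in C17.2, 0 to 3 and 0 to 7 in C3.2, and 2 to 21 and 0 to 2 for the difference. For the G1/S genes they were 3 to 11 and 4 to 10 in C17.2, 1 to 6 lower in C3.2, and 2 to 6 and 1 to 2 for the difference.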
